A study of Mus musculus with 7 samples.

Results

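The 500 intron pieces with the most sequencing counts in RNA of RAW264.7 mouse macrophages and of the extracellular vesicles (EVs) that these cells release are described here. They were chosen from the 232768 rows of the deposited table that stand for introns, out of 580839 rows in total, as those with the largest sum of counts over all 7 libraries. The choice used the counts themselves, so how high the pieces stand is a description and not a finding. The last 2 rows inside the limit, Intron_ENSMUST00000053414.12_6 and Intron_ENSMUST00000193603.5_4, summed to 4065 and 4061 counts, and the first 2 outside it, Intron_ENSMUST00000102898.4_5 and Intron_ENSMUST00000163455.8_13, to 4046 and 4035. A row name gives the Ensembl transcript and, where the transcript has a numbered list of introns, the intron's number in it, counted from 0.

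Introns are cut out of a transcript by the spliceosome and most of their RNA is degraded soon afterwards in the nucleus. Some introns hold the genes of other small RNAs, among them snoRNAs, microRNAs and tRNAs, and many hold SINE repeats, so a read that aligns within an intron can come from the pre-mRNA, from the excised intron, or from a separate RNA whose sequence lies there. EVs are membrane-bound particles shed by cells that carry proteins and mostly short RNAs of the cytoplasm. Dis3l2 is a cytoplasmic exoribonuclease that degrades RNAs from the 3′ end and prefers those with an added uridine tail; its known targets include uridylated microRNA precursors and structured transcripts of RNA polymerase III.

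Whole-cell RNA came from RAW264.7 cells with a non-silencing hairpin (cells shNS) and with a hairpin against Dis3l2 (cells shDis3l2). EV RNA came from the same pair of lines (EV shNS, EV shDis3l2) and from shDis3l2 cells that also carried an empty vector (EV Vector), a Dis3l2 transgene that the hairpin does not target (EV Dis3l2r) or the catalytically inactive Dis3l2 D389N (EV D389N), a group whose genotype label reads Dis3l2r D389N. Per the labels' protocols, cells were kept in 1 µg/mL doxycycline, EVs were taken from a sucrose gradient and treated with 20 U of micrococcal nuclease, and libraries were made from 50 ng of RNA with a group II intron reverse transcriptase, an enzyme that joins the adapter by switching templates at the RNA's 3′ end. Whole-cell RNA was depleted of rRNA; the protocol names no such step for EV RNA. Each group has 1 library and the labels name no separate cultures, so there are no replicates: a value for a single library carries counting error only, and fits over several libraries measure the spread between libraries of different genotypes. Compartment also goes together with depletion and nuclease treatment, which cannot be told apart from it.

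The rows that stand for whole RNAs (transcripts, tRNAs, SINEs and 4.5S RNA) summed to 37041326 and 32342600 counts in shNS and shDis3l2 cells and to between 13439408 and 25177102 in the EV libraries. CPM here means counts scaled to 1000000 on those rows, and 3 counts, the most that a count of 0 allows, correspond to between 0.0810 and 0.223 CPM. Of the 474 transcripts that carry the 500 pieces, 0 were found in the gene tables used here. Host genes, cell type markers and the level of Dis3l2 itself were therefore not checked, and the positions, lengths and sequences of the introns were not analysed here. Levels of different pieces are not corrected for length.

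The 500 pieces stood at a higher level in EVs than in cells when set against whole RNAs. For each 100 counts on whole-RNA rows they had 14.1 counts in shNS cells and 12.9 in shDis3l2 cells. In EVs they had 26.2 in shNS, 30.2 in shDis3l2, 32.0 in Vector, 32.5 in Dis3l2r and 35.5 in D389N, so every EV library lay above both cell libraries. The mean of the 5 EV libraries exceeded that of the 2 cell libraries by 17.8 counts for each 100 (31.3 against 13.5). This is a description: the rule summed counts over 5 EV and 2 cell libraries, and so favoured pieces that are high in EVs. The scale in cells also rests on 1 whole-RNA row, ENSMUST00000083988, which held 46.1% of whole-RNA counts in shDis3l2 cells, 19.3% in shNS cells and 2.08% to 8.30% in EVs. Without that row the pieces had 17.5 counts for each 100 in shNS cells and 24.0 in shDis3l2 cells, so that the order of the cell libraries turned, and 27.7 to 36.7 in EVs. As a share of all intron counts, the order was different. The 500 pieces held 96.4% of intron counts in shNS cells (95% interval 96.39% to 96.42%, exact Clopper-Pearson, counting error only) and 63.5% in shDis3l2 cells (63.46% to 63.53%). In EVs the shares were 70.8% in shNS, 75.6% in shDis3l2, 79.0% in Vector, 62.8% in Dis3l2r and 78.1% in D389N. On this scale EV libraries averaged 73.3% and cell libraries 80.0%, and the groups overlapped.

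The other intron pieces moved with this change of scale. They had 0.525 counts for each 100 whole-RNA counts in shNS cells, 7.44 in shDis3l2 cells, 8.51 to 10.8 in 4 EV libraries and 19.2 in Dis3l2r EVs. The number of intron rows above 0 ranged from 19433 in shNS cells to 115493 in shDis3l2 cells, with 54657 to 95927 in EVs. The shNS cell library thus stood apart from the other 6 in how many introns it covered. Without the shNS cells the EV minus cell difference was 18.4 counts for each 100, and without the shDis3l2 cells 17.2.

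**Figure D1:**
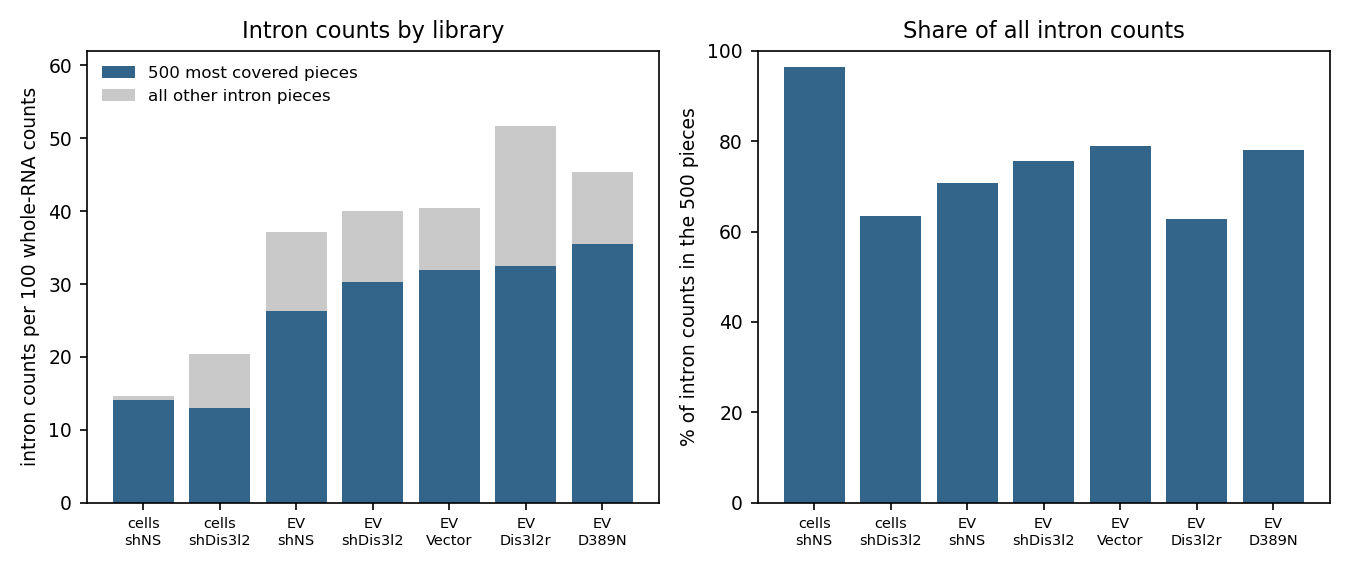
Left: counts on the 500 pieces (blue) and on all other intron pieces (grey) for each 100 counts on whole-RNA rows, 1 bar per library. Right: the percentage of all intron counts held by the 500 pieces. The blue bars are higher in all 5 EV libraries (26.2 to 35.5) than in cells (14.1 and 12.9), while the share on the right is highest in shNS cells (96.4%).

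A few pieces held most of the counts in every library. The 10 largest of each library's own held 62.6% to 73.1% of the counts on the 500 in the 5 EV libraries, 54.6% in shNS cells and 48.3% in shDis3l2 cells. For the 50 largest the order was mixed, at 86.6% to 90.8% in EVs, 91.4% in shNS cells and 85.4% in shDis3l2 cells. The 10 pieces with the largest sums over all libraries, a list that EV counts dominate, held 32.3% and 17.3% in shNS and shDis3l2 cells. At the other end, the median piece stood at 1.48 CPM in shNS cells and 6.40 in shDis3l2 cells, and at 49.3 to 74.8 CPM in EVs. In shNS cells 159 of the 500 had under 20 counts and 23 were at 0; in EV libraries 21 to 31 had under 20 counts. More than 50% of the summed count came from EVs for 421 pieces, and Vector EVs, the deepest EV library, gave the most counts of any library for 257. These counts are not scaled for depth, and 5 of the 7 libraries are from EVs. Both numbers therefore follow in part from depth and from the rule of choice. The shares over all intron rows were not counted.

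Intron_ENSMUST00000216816.1_1 had the largest sum. It stood at 34930 CPM in shNS, 50132 in shDis3l2, 48124 in Vector, 39349 in Dis3l2r and 65322 in D389N EVs, against 1587 in shNS and 643 in shDis3l2 cells. All EV libraries were above both cell libraries, and the EV against cell fit described below gave a log2 fold change of 5.41 (SE 0.406, edgeR adjusted p = 7.33e-09). Its counts kept a ratio of 0.731 to 0.813 to the row of 4.5S RNA, a short rodent transcript of RNA polymerase III, in every library. Without this piece the EV libraries had 22.8 to 28.9 counts for each 100 and the cells 13.9 and 12.9.

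Intron_ENSMUST00000148743.1, the next by sum, stood at 23128 to 57552 CPM in EVs and at 6413 in shNS and 4258 in shDis3l2 cells. Its counts were 1.00 to 1.01 times those of the row of the initiator methionine tRNA-iMet-CAT-1-1 in all 7 libraries. The third, Intron_ENSMUST00000214889.1_54, ran at 28070 to 35813 CPM in EVs and at 5342 and 2195 in cells, 1.61 to 1.79 times the proline tRNA-Pro-CGG-1-1.

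The fourth, Intron_ENSMUST00000204394.2_2, was the 1 piece of the 10 whose EV and cell levels overlapped. It had 21300 CPM in shNS cells and 8367 in shDis3l2 cells, and 15165, 18226, 15652, 13946 and 19031 CPM in the shNS, shDis3l2, Vector, Dis3l2r and D389N EVs. All EVs lay below shNS and above shDis3l2 cells, and the fitted EV against cell log2 fold change of 0.22 was not called (edgeR adjusted p = 0.755). The fifth, Intron_ENSMUST00000107691.7_0, was among the steadiest in EVs, with 20898 to 23948 CPM, against 5207 and 3699 in cells.

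The sixth, Intron_ENSMUST00000212411.1, was found almost entirely in EVs. It had 368 and 782 counts in shNS and shDis3l2 cells (9.93 and 24.2 CPM) and 150897 to 380422 counts in EVs. In CPM the shNS EVs stood at 6376 and the others higher, with 15707 in shDis3l2, 13023 in Vector, 15815 in Dis3l2r and 18158 in D389N. The remaining 4, Intron_ENSMUST00000203414.1_8, Intron_ENSMUST00000146121.2, Intron_ENSMUST00000181531.1_1 and Intron_ENSMUST00000180741.2_1, reached 4554 to 15014 CPM in EVs and 572 to 1818 in cells. Intron_ENSMUST00000181531.1_1 was split within the EVs, at 4554 and 4744 CPM in the shNS and shDis3l2 lines and at 9880 to 12350 in the 3 lines with a transgene or empty vector.

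**Figure D2:**
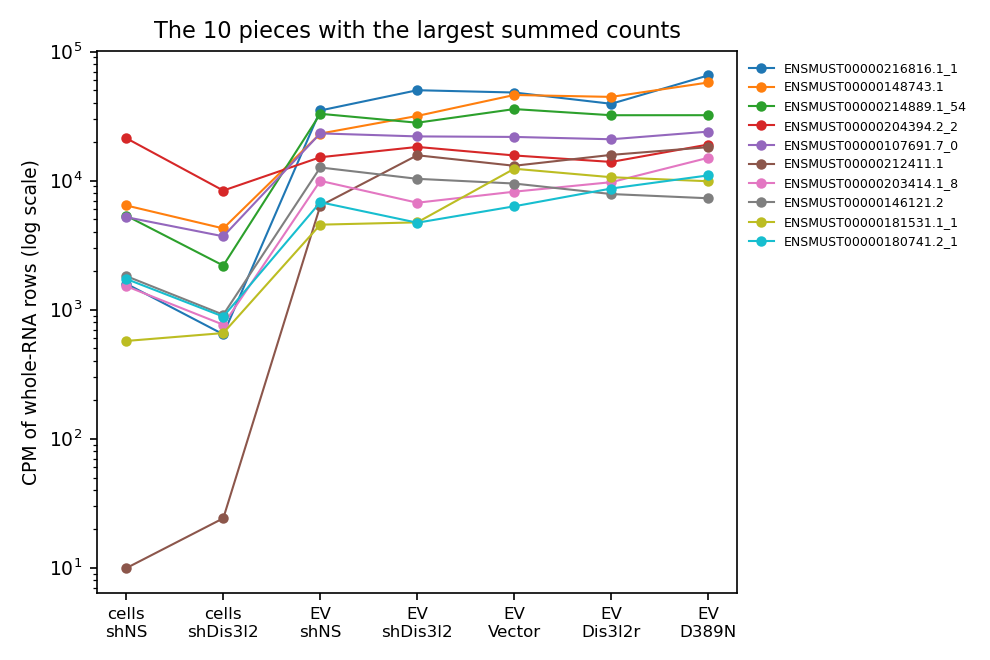
CPM (log scale) of the 10 pieces with the largest summed counts, 1 coloured line per piece joining its values in the 7 libraries, which have no order. Of the 10, 9 lie higher in every EV library than in both cell libraries; Intron_ENSMUST00000204394.2_2 has its highest value in shNS cells (21300 CPM).

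Several of these pieces carried the same counts as a row for a whole RNA. A piece was taken as matched when 1 whole-RNA row with at least 1000 counts in sum had its counts in all 7 libraries to within 10% plus 5 counts, a tolerance set after the data were seen. There were 8 such pieces. Of these, 4 followed a tRNA row (tRNA-iMet-CAT-1-1, tRNA-Ile-AAT-1-1, tRNA-Gly-CCC-3-1 and tRNA-Thr-CGT-2-1) and all 4 lay higher in every EV library than in cells. The other 4 followed a transcript row, with ratios between 0.998 and 1.01, and all 4 lay lower in every EV library than in cells. The 8 held 16.1% to 22.0% of the counts on the 500 in EVs and 8.18% and 6.62% in shNS and shDis3l2 cells. Without them, EVs had 22.0 to 27.7 and cells 12.9 and 12.1 counts for each 100. A nearest row, that with the least spread of the log2 ratio over the 7 libraries, exists for any piece. It was a tRNA row for 8 of the 10 pieces with the largest sums, with an SD of the log2 ratio of 0.00334 to 0.191, and for 68 of the 151 pieces with at least 100 counts in each library. Of those 151 pieces, 10 followed their nearest row with an SD under 0.1. The median of that SD was 0.32. The share of tRNA rows among the rows searched was not counted, so no origin is read from the kind of nearest row.

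The pieces lie in 474 transcripts: 452 carry 1 of them, 18 carry 2 and 4 carry 3. Of the 442 pieces whose transcript lists at least 2 introns, 298 held over 90% of all intron counts of that transcript, and the median over the 500 was 97.4%. Since the pieces were chosen for high intron counts, such shares follow in part from the rule: among the next 500 rows by sum the median was 85.8%, and among the 25265 intron rows with at least 100 counts it was 40.6%. For 406 pieces the transcript also has exon rows, and in 405 of them the exon rows together had fewer counts than the single intron piece (median sums of 39.4 and 8747 counts over the 7 libraries); the same held for 93.7% of intron rows with at least 100 counts. Pieces that are the only intron listed for their transcript made up 11.6% of the 500, against 8.46% of all intron rows, and pieces numbered 0 made up 22.0%, against 13.7%. No 2 pieces had identical counts in all 7 libraries. In 374 pieces the estimated count lay more than 0.001 from a whole number in every library, as happens where an estimator divides reads between rows.

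By the order of their CPM the pieces fell into 3 groups. In 366 of the 500 all 5 EV libraries were above both cell libraries, in 76 all 5 were below both, and in 58 the compartments overlapped. Among the 25265 intron rows with at least 100 counts, 28.1% had all EV libraries above and 0.934% all below. Among the next 500 rows by sum the counts were 338 and 19. These groups were formed from the values and carry no test. Those above in EVs held 75.4% of all counts on the 500, those below 15.1% and those overlapping 9.58%.

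The 366 pieces that were higher in EVs had a median of 1.19 CPM in shNS cells and 3.19 in shDis3l2 cells, against 59.1 to 85.7 in EVs. The 76 that were lower in EVs were abundant in both cell libraries, with medians of 412 and 382 CPM, and low in EVs, with 1.64 to 4.00. Together these 76 had 7.99 and 8.68 counts for each 100 whole-RNA counts in cells and 0.359 to 0.467 in EVs. Of the first 50 pieces by sum, 16 were among these 76 and 30 among the 366. The 58 overlapping pieces had a median of 0.231 CPM in shNS cells, against 55.6 in shDis3l2 cells and 27.8 to 92.0 in EVs. They were not alike: 9 of them were higher in shNS than in shDis3l2 cells, among them Intron_ENSMUST00000204394.2_2, the highest of all pieces in shNS cells.

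**Figure D3:**
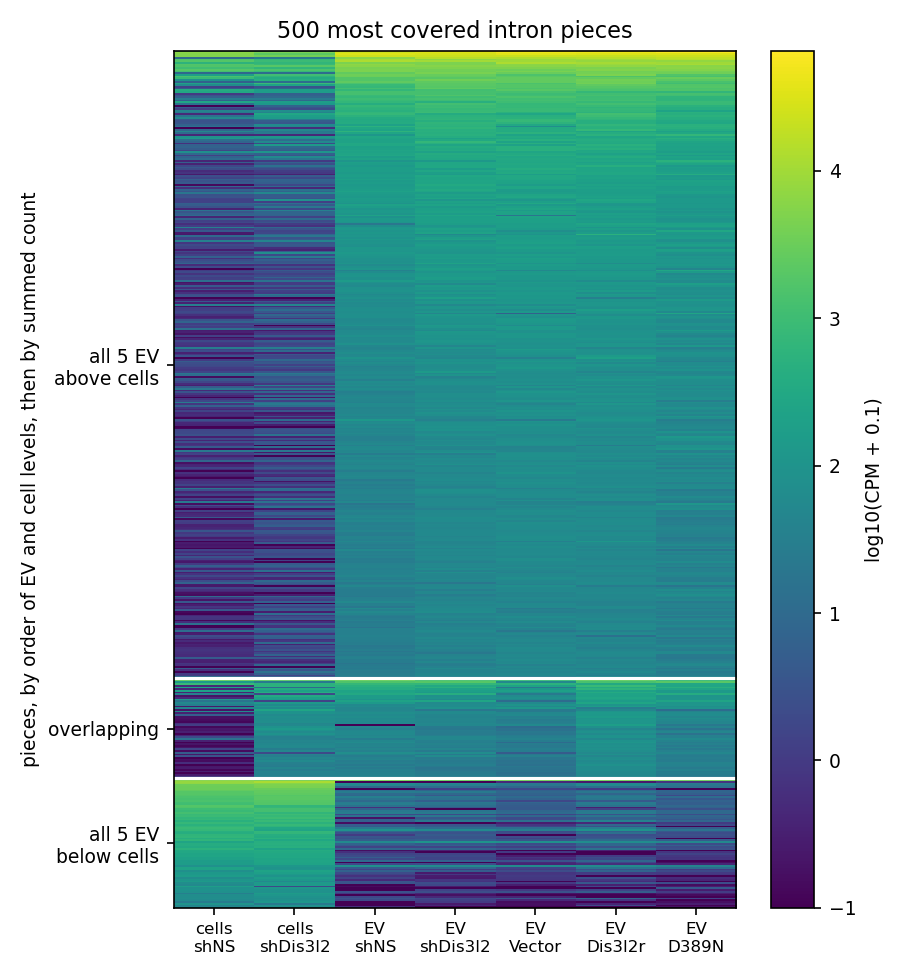
Level of each of the 500 pieces (rows) in each library (columns) as log10 of CPM plus 0.1. The 366 pieces on top are higher in all 5 EV libraries than in both cell libraries, the 76 at the bottom are lower, and the 58 between them overlap, with a median of 0.231 CPM in shNS cells and 55.6 in shDis3l2 cells.

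Most of the pieces were higher in EVs than in the cells of the same line, and a smaller set was far lower. Single libraries were compared as the log2 ratio of CPM with an exact conditional binomial 95% interval. A piece was called where both libraries together had at least 100 counts, the ratio was at least 2-fold and the interval excluded 1. In the shNS line 408 of 499 were higher in EVs and 74 lower, with a median log2 ratio of 5.44. The same rule called 95.6% of all intron rows higher and 3.22% lower there, against 81.8% and 14.8% of the 500. Of the 6026 other intron rows that reached the minimum, 5830 had under 100 counts in shNS cells alone, so nothing is read from the contrast with that background. In the shDis3l2 line 367 of 499 were higher and 85 lower, with a median of 3.94. There the background was 32.8% higher and 22.8% lower, against 73.5% and 17.0% of the 500; the rule of choice favours the first direction, and the difference was not tested.

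Of the 498 pieces tested in both lines, 360 were called higher in both and 73 lower in both. The share of all intron rows called alike in both lines was not counted. The pairs share no library, but the rule of choice summed all of these libraries, so the 2 counts are a description. The largest ratios were reached by pieces with 0 counts in cells. In the shNS line Intron_ENSMUST00000155498.7_1 had 17295 counts in EVs and 0 in cells, at least 9022-fold higher against a floor of 3 counts, and Intron_ENSMUST00000198461.1_0 had 6981 and 0, at least 3642-fold higher. In the other direction Intron_ENSMUST00000034966.8_4 had 287867 counts in shNS cells and 0 in EVs, at least 61312-fold lower, and 378220 and 0 in the shDis3l2 line, at least 71836-fold lower. Its counts in the Vector, Dis3l2r and D389N EVs were 9, 2 and 14, so the near absence held in all 5 EV libraries. Intron_ENSMUST00000082134.5_1 had 117260 counts in shNS cells and 97103 in shDis3l2 cells, and 0, 20, 42, 12 and 0 in the shNS, shDis3l2, Vector, Dis3l2r and D389N EVs.

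The other introns of the same transcripts were set beside the pieces, by group and by line. Pieces higher in EVs were taken where their transcript had at least 100 counts on its other introns. In the shDis3l2 line the median EV against cell log2 ratio was 4.75 for the piece and 0.61 for those other introns (177 pieces). The grouping itself fixes the first of these medians as high, so their contrast is a description and was not tested. In the shNS line the same medians were 5.66 and 5.74 (151 pieces). Of the 6026 other intron rows that reached the minimum in that line, 5830 had under 100 counts in shNS cells alone. Nothing is therefore read from the 5.74. For pieces lower in EVs the other introns were mostly lower as well. In the shDis3l2 line medians were -6.97 and -6.56, with the other introns below 0 in 37 of 45. In the shNS line medians were -6.73 and -5.49, with 34 of 45. These other introns can include pieces of the same group: 13 transcripts carry 2 or 3 pieces that are all lower in EVs. Such a transcript also enters once for each of its pieces. The 45 are therefore not independent, and the grouping partly fixes their direction.

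**Figure D4:**
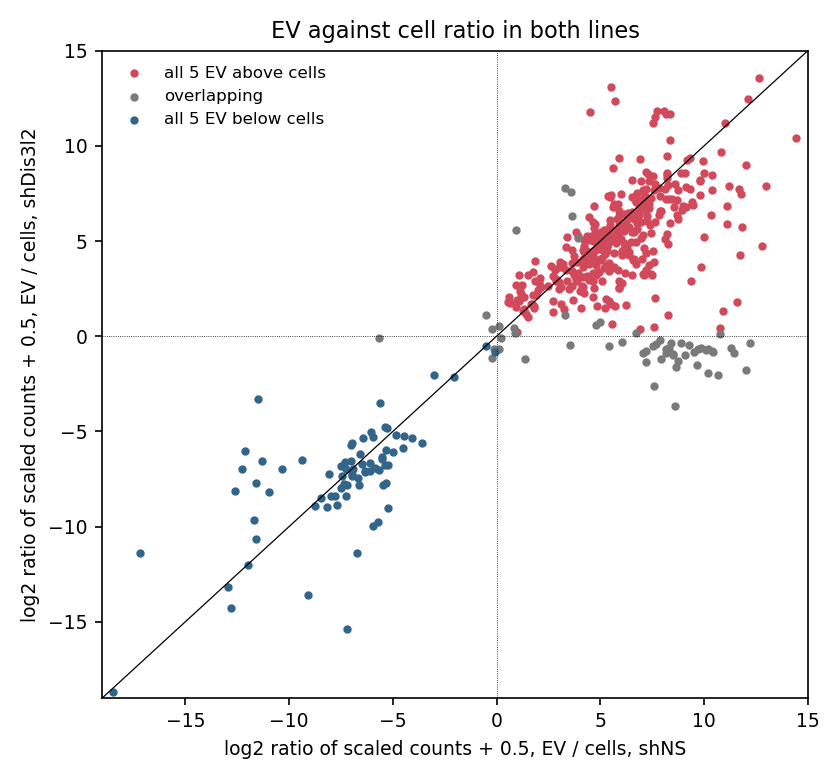
EV against cell log2 ratio of scaled counts, with 0.5 count added, in the shNS line (x axis) and the shDis3l2 line (y axis), 1 point per piece, with the line of equal ratios. Pieces above in all EV libraries lie at the upper right and those below at the lower left; the 58 overlapping pieces lie mostly at high x and near 0 on y, with medians of 8.02 and -0.62.

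The EV and cell libraries were also compared in a fit over all 7. edgeR's quasi-likelihood test set the 5 EV against the 2 cell libraries, with the Dis3l2 class of each library as a covariate, over all 79839 rows of the table that passed the count filter, and p-values were adjusted over all of them by the Benjamini-Hochberg method. All 500 pieces entered. The fit called 272 higher and 73 lower in EVs, with a median log2 fold change of 4.47; over all rows tested 1.24% were called higher and 0.764% lower, and over intron rows 1.18% and 0.217%. Among the next 500 rows by sum it called 149 and 12. The pieces were chosen on summed counts, which also favour the power to call them, so these counts are not set against the background as a result. Of the 76 pieces lower in every EV library 73 were called, of the 366 higher ones 271, and of the 58 overlapping ones 1; the groups were formed from the same values, so this is no separate support for them. The total of 345 depended on which libraries entered: it was 208, 213 and 218 without the shDis3l2, Vector or D389N EVs, 411 and 469 without the shNS or shDis3l2 cells, and 115 with the 4 libraries of the shNS and shDis3l2 lines alone.

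The lowest adjusted p belonged to a piece lower in EVs. Intron_ENSMUST00000103198.10_4 had 11751 and 12175 CPM in shNS and shDis3l2 cells, and 145, 86.8, 60.5, 121 and 49.4 CPM in the shNS, shDis3l2, Vector, Dis3l2r and D389N EVs. Its log2 fold change was -7.07 (SE 0.381, edgeR adjusted p = 1.19e-10), with all 5 EV libraries below both cell libraries. Intron_ENSMUST00000034966.8_2, another intron of the transcript that holds the piece with 0 counts described above, had 3228 and 4400 CPM in cells and 8.63 to 14.2 in EVs, a log2 fold change of -8.38 (SE 0.485, edgeR adjusted p = 2.11e-10). Among the pieces higher in EVs the lowest adjusted p belonged to Intron_ENSMUST00000212411.1, the sixth by sum, at 9.68 (SE 0.557, edgeR adjusted p = 2.09e-10). Intron_ENSMUST00000236930.1 followed, with 8.70 and 11.7 CPM in cells and 2553, 4498, 3075, 3932 and 3573 CPM in the shNS, shDis3l2, Vector, Dis3l2r and D389N EVs, at 8.42 (SE 0.599, edgeR adjusted p = 3.28e-09).

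Knockdown of Dis3l2 in whole cells was compared in 1 library of each line. Of the 361 pieces with at least 100 counts, 162 were higher in shDis3l2 cells and 27 lower, with a median log2 ratio of 0.80. The background was 91.6% of intron rows higher and 1.3% lower, against 44.9% and 7.48% of the 500. Of the 5394 other intron rows that reached the minimum, 5198 had under 100 counts in shNS cells alone, so nothing is read from that contrast. By group, 45 of the 58 overlapping pieces were higher, with a median of 8.12, which the grouping partly fixes, since a piece low in 1 cell library and high in the other falls there. The 366 pieces higher in EVs had a median of 0.97, and the 76 pieces lower in EVs had one of 0.24, with 6 higher and 11 lower. The broader coverage of introns in the shDis3l2 cell library, 115493 rows above 0 against 19433, moved with this difference, and its part in the result was not tested. Among the largest ratios, Intron_ENSMUST00000179881.1_3 had 2940 counts in shDis3l2 and 0 in shNS cells, at least 1122-fold higher. In the other direction Intron_ENSMUST00000097590.4_3 had 60 and 6829, a log2 ratio of -6.63 (-7.03 to -6.27), and Intron_ENSMUST00000036938.8_0 had 334 and 7658, at -4.32 (-4.49 to -4.17). With totals of intron rows as the scale the split was 127 higher and 51 lower, and 234 and 9 with TMM (trimmed mean of M values) or without ENSMUST00000083988 in the scale. A piece can pass the minimum of 100 counts through the library where it is high, so these counts cover the 361 pieces that passed and not all 500.

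In EVs the same knockdown went with smaller differences. Of 467 pieces 40 were higher in shDis3l2 EVs and 10 lower, against a background of 8.59% higher and 17.8% lower; in the 500 the shares were 8.57%, at the background, and 2.14%, below it, a difference that was not tested. The median log2 ratio was 0.40 over the 467 pieces, 0.53 over the pieces higher in EVs and -0.43 over the overlapping ones. For pieces lower in EVs it was -0.28, over the 43 of 76 that reached the minimum. Intron_ENSMUST00000193984.1_0 had 900 counts in shDis3l2 and 0 in shNS EVs, at least 385-fold higher. Intron_ENSMUST00000217920.1_1 had 3177 and 482 counts, a log2 ratio of 3.08 (2.94 to 3.22), and its other EV libraries, at 175, 245 and 202 CPM in Vector, Dis3l2r and D389N, stood with shDis3l2 (172) and not with shNS (20.3). The split was 31 higher and 14 lower with DESeq2 size factors and 28 and 15 with totals of intron rows.

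Re-expression of Dis3l2 in shDis3l2 cells was set against the empty vector, in EVs. Of 463 pieces 99 were higher in Dis3l2r EVs and 8 lower, and the median log2 ratio was 0.01. The shares were 21.4% and 1.73%, against a background of 56.5% higher and 3.27% lower. The pieces higher in EVs differed little, with 19 of 366 higher, 5 lower and a median log2 ratio of -0.11. The overlapping pieces and those lower in EVs were mostly higher, with 51 of 58 and 29 of 39 called and medians of 1.76 and 1.43. Only these 39 of the 76 pieces lower in EVs reached the minimum, which a piece can pass through the library where it is high. The 76 stood low, at medians of 1.64 CPM in Vector and 4.00 CPM in Dis3l2r EVs. Other intron pieces were also at their highest in Dis3l2r EVs (19.2 for each 100). Among pieces lower in Dis3l2r EVs, Intron_ENSMUST00000041460.12_1 had 394 counts against 3023, a log2 ratio of -2.03 (-2.19 to -1.88). The split was 84 and 31 with DESeq2 size factors and 82 and 31 with totals of intron rows, where the median was -0.33 and -0.34.

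The catalytic mutant was set against the empty vector and against Dis3l2r; these comparisons share libraries with the one before and are given side by side. Against Vector, 28 of 459 pieces were higher and 72 lower in D389N EVs (background 24.1% and 11.7%), with a median log2 ratio of -0.26. Against Dis3l2r, 9 of 461 were higher and 103 lower (background 4.66% and 44.8%), with a median of -0.48. By group, the medians against Dis3l2r were -0.33 for pieces higher in EVs and -1.16 for the overlapping ones. For pieces lower in EVs the median was -1.26, over the 37 of 76 that reached the minimum. Both directions depended on the scale: with DESeq2 size factors, 62 were higher and 16 lower against Vector, and 52 and 25 against Dis3l2r. Against Vector the split was 37 and 45 with TMM and 21 and 113 with totals of intron rows. Intron_ENSMUST00000001148.10_0 had 5638 counts in D389N and 1075 in Dis3l2r EVs, a log2 ratio of 1.75 (1.66 to 1.85), and stood at 269 CPM in D389N, 149 in shDis3l2, 80.0 in Dis3l2r, 51.2 in Vector and 37.6 in shNS EVs. Intron_ENSMUST00000054220.9_2, a piece lower in EVs, had 38 and 237 counts, at -3.28 (-3.82 to -2.78).

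By their labels, Vector and shDis3l2 EVs both come from cells with the hairpin against Dis3l2 and no Dis3l2 transgene. Between them 13 of 464 pieces were higher in Vector and 40 lower (background 7.89% and 14.4%), with a median log2 ratio of 0.05. Between shDis3l2 and shNS EVs, which differ in the hairpin, the numbers were 40 and 10. With DESeq2 size factors the split between Vector and shDis3l2 EVs reversed, to 49 higher and 22 lower in Vector.

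The 3 EV libraries from shDis3l2 cells without an active transgene (shDis3l2, Vector and D389N) were then set against the other 2 (shNS and Dis3l2r). These groups are called without and with active Dis3l2 here, from the genotype labels alone. The Dis3l2 left after knockdown was not checked. The 500 pieces had 32.6 and 29.4 counts for each 100 whole-RNA counts, a difference of 3.20 (two-sided exact permutation test, p = 0.6), and the groups overlapped, at 30.2 to 35.5 and 26.2 to 32.5. That difference was 0.0729 without the shNS EVs, 1.74 without the D389N EVs and 6.33 without the Dis3l2r EVs. As a share of all intron counts the groups did not overlap, at 75.6% to 79.0% without and 62.8% to 70.8% with active Dis3l2. The difference was 10.8 percentage points (exact permutation p = 0.2, the smallest that 3 against 2 libraries can give). Neither permutation test could reach 0.05, and the pieces were chosen on counts of the same libraries. Both differences are therefore descriptions. In edgeR's fit over 68328 rows 0 of the 486 pieces tested were called (background 0%), and the smallest adjusted p was 0.658. At an unadjusted edgeR p under 0.05 there were 53 of the 486 pieces, and 4486 of all 68328 rows. DESeq2 called 3 pieces higher and 5 lower, and 48 and 126 of all 68328 rows. Medians of the fitted log2 difference were 0.18 for pieces higher in EVs, -0.78 for those lower in EVs and -1.02 for the overlapping ones, and -0.82 over all intron rows tested. Of the 475 pieces with at least 100 EV counts, 29 had all 3 libraries without active Dis3l2 above both with it and 72 had them all below; the background was 3.18% and 30.6%.

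A few pieces stood apart in a single EV library. After the values were seen, pieces were counted that lay in 1 EV library at under 1/4 of the CPM of every other EV library. There were 9 for Vector, 3 for shNS, 3 for D389N, 1 for shDis3l2 and 0 for Dis3l2r, out of 475 with at least 100 EV counts. Over all intron rows with as many counts the shares were 5.07% for Vector, 1.74% for shNS, 6.75% for D389N, 4.09% for shDis3l2 and 1.04% for Dis3l2r, so such rows were found in every EV library and outside the 500. Intron_ENSMUST00000040826.5 had 1325 counts in Vector EVs and 38802, 34419, 18941 and 42319 in the shNS, shDis3l2, Dis3l2r and D389N EVs, that is 52.6 CPM against 1409 to 2020, so that Vector was 26.8-fold below the lowest of the others. It had 4922 counts in shNS cells and 766 in shDis3l2 cells. Intron_ENSMUST00000036938.8_0 had 498 counts in Vector EVs (19.8 CPM) against 384 to 502 CPM in the others, and 207 and 10.3 CPM in shNS and shDis3l2 cells.

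**Figure D5:**
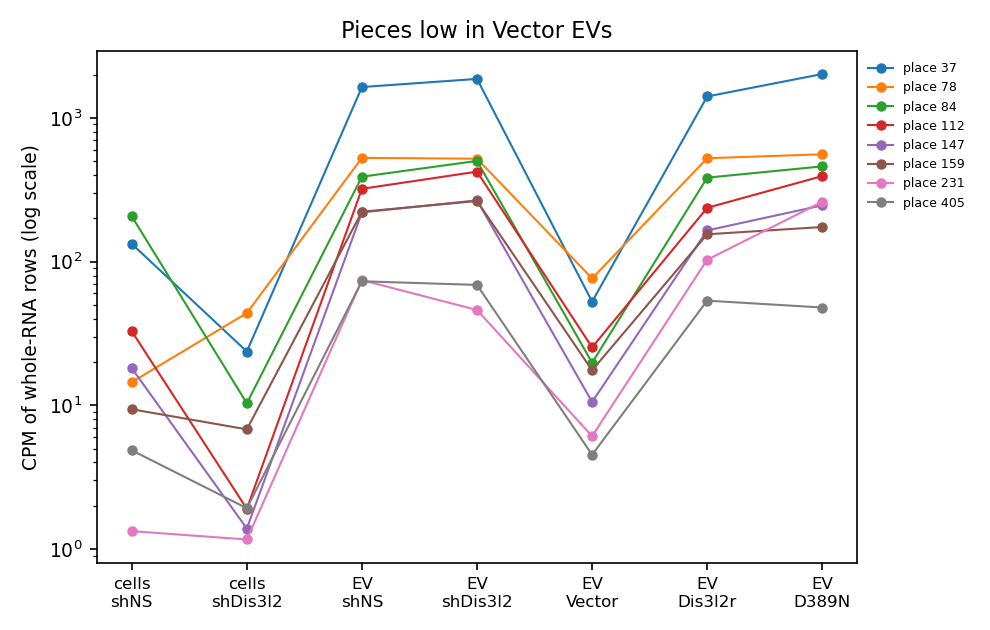
CPM (log scale) of 8 of the 9 pieces that lie in Vector EVs at under 1/4 of every other EV library, 1 line per piece, named by its place in the list of 500 by summed count; the ninth has 0 counts in Vector EVs and is left out. The pieces were chosen for low Vector values, which lie 6.81-fold to 26.8-fold below the lowest other EV library.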

How the data were processed

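The members and lists were chosen with earlier results of these data known. The authors deposited 1 table of estimated counts (expected read counts, not scaled between libraries) with a column for each of the 7 libraries; 0 columns belonged to other samples. The submitters' processing notes name Salmon, Novoalign, UMI-tools and cutadapt, and GRCm38 and mm10 as builds; versions, step order, strand settings and any deduplication by the 12 nt random tag were not given in the sources used here. Intron rows and whole-RNA rows can stand for the same RNA, so intron counts are given relative to whole-RNA counts and not as a part of them.

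Totals of whole-RNA rows, 13439408 to 37041326 counts, served as depth and as the scale of every pair and fit. For intervals and fits the counts were rounded to whole numbers. Intervals are exact at 95% and cover counting error only. The fits used edgeR 4.0.16 (quasi-likelihood, filterByExpr, no further scaling, Benjamini-Hochberg threshold 0.05). They ran in R 4.3.3 with DESeq2 1.42.0 as an alternative. The code was also run on simulated counts with a fixed dispersion. Such counts do not hold the differences between genotypes, so nothing about these libraries is read from that run. Tables, intervals and figures came from scipy 1.17.1, pandas 2.3.3, matplotlib 3.10.9 and numpy 2.4.6 under Python 3.11.15. p-values measure the spread between libraries that are not replicates.

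Pieces were named by rule: the 10 with the largest sums, 5 each way among those called in each pair, 10 each way by adjusted p in the EV against cell fit, 5 each way in the Dis3l2 fit (which called 0), and 2 rows on either side of the limit. As row names pair with no gene name, at most 2 each way are printed for a comparison. Lists by gene symbol (snoRNA and microRNA hosts, nuclear RNAs, inflammatory and decay genes, cell type markers) could not be matched and have no result. Alternatives were other scalings, count minimums, denominators, choices of members, DESeq2 and leaving out each library.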

Additional observations from a re-analysis of the deposited data

Results flagged for a closer look

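In 11 of the 498 pieces measured in both lines the EV against cell ratio pointed in opposite directions in the lines: higher in EVs than cells in shNS and lower in shDis3l2. Over all intron rows measured in both lines the share was 12.4%. Their counts were 0 to 1880 in shNS cells (median 4) and 1400 to 13926 in shDis3l2 cells (median 2940). Intron_ENSMUST00000099046.3_1 had 11 and 13926 counts in those cells and 5906 and 2749 in EVs, with log2 ratios of 9.71 (8.87 to 10.72) and -1.53 (-1.59 to -1.47). Intron_ENSMUST00000214038.1, chosen after its values were seen, had 3 and 10900 counts in cells and 3641 and 1512 in EVs. The difference between the lines was not tested, as each has 1 library per compartment.

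In 6 of 328 pieces knockdown went with higher counts in cells and lower counts in EVs, against 19.3% of all intron rows measured in both pairs. Intron_ENSMUST00000151376.2_2 had 4 counts in shNS and 8283 in shDis3l2 cells, and 1107 and 376 in the EVs, with a log2 ratio in EVs of -1.20 (-1.37 to -1.03). Intron_ENSMUST00000179881.1_3 had 0 and 2940 counts in cells and 1332 and 487 in EVs. This difference was not tested either.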

How the results depend on the processing

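No paired analysis was possible because each group has 1 library, so groups share fewer than 2 replicate numbers; cells and EVs of the shNS and shDis3l2 lines were compared within line by ratios and in the fit on those 4 libraries. Counts for each 100 whole-RNA counts, given for shNS cells, shDis3l2 cells, the lowest and the highest EV library, were 14.0, 12.8, 26.3 and 35.5 for the 500 by summed CPM, 13.9, 12.5, 25.3 and 34.4 for 250 pieces, 14.2, 13.4, 27.3 and 36.7 for 1000, 13.9, 12.9, 22.8 and 28.9 without the most abundant piece, 12.9, 12.1, 22.0 and 27.7 without the 8 matched pieces, and 17.5, 24.0, 27.7 and 36.7 without ENSMUST00000083988 in the denominator, the last alternatives chosen after seeing the data. Percentages of all rows were 7.17, 6.22, 16.0 and 20.8, and percentages of intron rows 96.4, 63.5, 62.8 and 79.0. On the scale of intron rows the EV minus cell difference reversed, to -6.69. Among pairs, members called came to 109 for knockdown in cells at a minimum of 500 counts (85 higher, 24 lower). With DESeq2 size factors the direction of the split reversed for D389N against Vector (78 called), D389N against Dis3l2r (77) and Vector against shDis3l2 EVs (71); these factors moved every log2 ratio by 0.40, 0.73 and 0.36. In the other pairs scalings moved every log2 ratio by -1.34 to 1.05. The EV against cell fit called 115 on the 4 libraries of the shNS and shDis3l2 lines and 208 to 469 with 1 library left out. The fit by Dis3l2 class called 4 with no filter, 8 with DESeq2 and 0 to 6 with 1 library left out (6 without shNS EVs and 3 without Dis3l2r EVs). Of these and the remaining values for shares, counts and fits, 132 kept direction and size class, 41 moved and 4 reversed. The causes were not tested.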
